A study of Mus musculus with 8 samples.

Results

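The 7 genes described here, Clec4a2, Clec4d, Clec4e, Clec5a, Clec7a, Clec10a and Clec12a, encode C-type lectin receptors of myeloid cells and were taken as a named list. Their probes were found by matching the accession printed beside each probe of the array design to a RefSeq gene table, which found 6 of the 7, out of 20284 genes named on the array of 55681 probes, with 1 probe each. No probe carried an accession that the table pairs with Clec7a. A probe under an older accession of Clec7a is on the array, but the table does not list that accession, so Clec7a was not analysed here. The study measured total RNA on one-colour (Cy3) Agilent microarrays in 8 samples of granulocyte progenitors (GPs), bone marrow cells committed to making granulocytes, sorted from mice. The 4 groups were Irf8KO Flt3+ GPs and Irf8KO Flt3- GPs from mice deficient in Irf8, a transcription factor of the interferon regulatory factor family, and WT Flt3+ GPs and WT Flt3- GPs from wild-type mice. Each group had 2 arrays, from experiments 1 and 2. Flt3 is the receptor for the cytokine Flt3 ligand, and its presence at the cell surface divided the progenitors. The cells were described as primary and without further treatment. The strain, the age, the kind of Irf8 deletion and the number of mice behind each array were not given in the labels or headers, and the p-values below measure the spread between these arrays.

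C-type lectin receptors are surface proteins with a carbohydrate-binding fold, and many of them recognise sugars or lipids of microbes or molecules released by dying cells. Clec4e (Mincle), Clec4d and Clec5a have no signalling motif of their own. Clec4e and Clec4d act through the adaptor Fcer1g, Clec5a acts through Tyrobp (DAP12) and Hcst, and the kinase Syk and the relay of Card9, Bcl10 and Malt1 then carry the signal to NF-kappaB. Clec4a2 and Clec12a are inhibitory receptors that carry an immunoreceptor tyrosine-based inhibitory motif and recruit the phosphatases Ptpn6 and Ptpn11. Clec10a binds galactose-type sugars and is known from macrophages and dendritic cells.

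Of the 7 genes, 6 lie on mouse chromosome 6, and Clec10a lies on chromosome 11. The promoters of the 4 genes on chromosome 6 that differed in more than 1 of the comparisons below are shown because their levels moved in different directions with genotype. The windows run from 250 bases before to 50 after the RefSeq start in the orientation of the gene (GRCm38.p6). They are Clec5a at chr6:40585756-40586055 (minus strand), Clec12a at chr6:129349994-129350293 (plus strand), Clec4d at chr6:123261857-123262156 (plus strand) and Clec4e at chr6:123289822-123290121 (minus strand). Capitals mark matches on either strand to 4 short motifs of myeloid transcription factors.
Clec5a: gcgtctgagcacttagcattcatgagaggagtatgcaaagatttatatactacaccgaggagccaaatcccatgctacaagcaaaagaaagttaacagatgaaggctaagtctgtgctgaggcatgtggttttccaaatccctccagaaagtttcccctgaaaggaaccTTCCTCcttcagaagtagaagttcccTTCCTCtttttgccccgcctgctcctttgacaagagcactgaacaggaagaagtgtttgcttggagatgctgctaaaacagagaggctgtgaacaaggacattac
Clec12a: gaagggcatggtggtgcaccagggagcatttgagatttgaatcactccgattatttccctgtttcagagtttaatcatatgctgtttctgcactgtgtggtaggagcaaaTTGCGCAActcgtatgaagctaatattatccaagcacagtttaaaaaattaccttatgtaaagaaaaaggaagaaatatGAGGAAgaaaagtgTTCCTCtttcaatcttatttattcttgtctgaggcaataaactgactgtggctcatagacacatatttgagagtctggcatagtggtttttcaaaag
Clec4d: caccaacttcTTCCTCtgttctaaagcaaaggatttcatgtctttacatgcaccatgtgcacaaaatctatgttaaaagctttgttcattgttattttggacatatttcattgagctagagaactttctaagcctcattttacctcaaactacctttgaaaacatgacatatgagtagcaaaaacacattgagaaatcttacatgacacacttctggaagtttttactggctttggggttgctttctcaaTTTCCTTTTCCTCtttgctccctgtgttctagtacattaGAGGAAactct
Clec4e: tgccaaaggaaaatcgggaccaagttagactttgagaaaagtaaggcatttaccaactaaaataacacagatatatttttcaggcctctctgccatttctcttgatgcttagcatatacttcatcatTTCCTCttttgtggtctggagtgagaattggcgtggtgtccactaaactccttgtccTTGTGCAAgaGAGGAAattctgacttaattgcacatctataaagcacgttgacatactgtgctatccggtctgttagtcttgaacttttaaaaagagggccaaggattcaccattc
The PU.1 core GAGGAA was found 2 times in the Clec5a window, 2 times in that of Clec12a, 3 times in that of Clec4d and 2 times in that of Clec4e. At least 1 such match was present in 28.3% of 32851 promoter windows of the same length. The C/EBP half-site pair TTGCNNAA was found in the Clec12a and Clec4e windows, and in 10.8% of all windows. The interferon response element, a pair of GAAA half-sites with 2 bases between them, was found in the Clec4d window, where it overlaps a PU.1 match, and in 3.44% of all windows. The composite of an ETS and an IRF half-site, GGAA and GAAA with 2 bases between them, was in none of these 4 windows and in 2.72% of all windows. Windows of members not shown differed from these. Each Clec7a window held 1 PU.1 match and 1 ETS and IRF composite, and the Clec4a2 window held 0 matches to the 4 motifs. A match describes the letters of the window and is not evidence of binding.

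On each array 54.9 to 60.1% of the spots were well above background and 0 were saturated, and arrays of the same group correlated at r of 0.9958 to 0.9976 across genes. Levels are log2 signals minus the 75th percentile of the array, so that 0 is the level of a probe at that percentile. By slide position, Irf8KO arrays were in one row and WT arrays in the other, with Flt3+ and Flt3- arrays in different columns, so slide position and group cannot be told apart. Flt3 stood at 6.29 and 6.30 in Irf8KO Flt3+ GPs against 2.71 and 2.68 in Irf8KO Flt3- GPs, and at 6.21 and 6.21 in WT Flt3+ GPs against 1.69 and 1.66 in WT Flt3- GPs, in the order of the sort. Arrays labelled Irf8KO gave more signal at the Irf8 probe than WT arrays did, with 6.67 and 6.67 in Irf8KO Flt3+ GPs against 5.80 and 5.87 in WT Flt3+ GPs, and 5.64 and 5.53 in Irf8KO Flt3- GPs against 4.85 and 4.88 in WT Flt3- GPs. Where this probe sits relative to the deletion was not stated, so it does not check the genotype, and Irf8KO stands below for the arrays labelled so. All 8 markers of granulocyte progenitors and primary granules (among them Elane, Mpo and Prtn3) were well above background on every array, with summed levels, in units of the array's 75th percentile, of 1196 to 1208 in Irf8KO Flt3+ GPs, 2534 to 2775 in Irf8KO Flt3- GPs, 679 to 761 in WT Flt3+ GPs and 2193 to 2327 in WT Flt3- GPs.

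**Figure D1:**
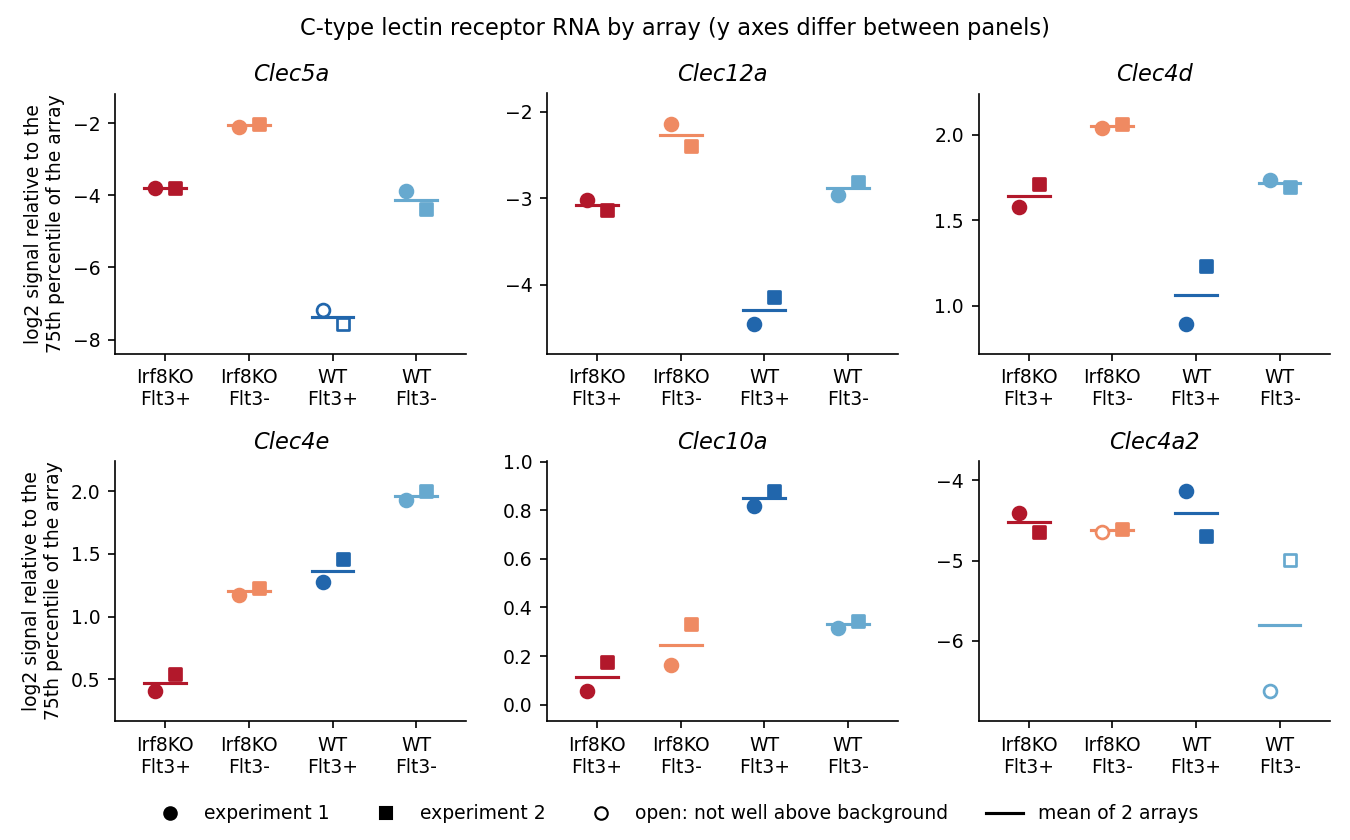
Level of each receptor on each array (y axis, log2 signal minus the array's 75th percentile) by group (x axis); points are arrays, bars are group means and open points are arrays where the probe was not well above background. Clec5a, Clec12a and Clec4d had their highest mean in Irf8KO Flt3- GPs and their lowest in WT Flt3+ GPs, while Clec4e was highest in WT Flt3- GPs and Clec10a in WT Flt3+ GPs.

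The plot of levels by group shows 3 patterns among the 6 measured receptors. Clec5a, Clec12a and Clec4d were highest in Irf8KO Flt3- GPs and lowest in WT Flt3+ GPs. Clec4e was highest in WT Flt3- GPs, and Clec10a in WT Flt3+ GPs. Clec4a2 was near the detection limit throughout.

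The first question is how loss of Irf8 bears on these receptors in Flt3+ GPs. Of the 6 receptors tested, 5 changed: Clec5a, Clec12a and Clec4d rose in Irf8KO Flt3+ GPs, and Clec4e and Clec10a fell. A change was called at a Benjamini-Hochberg adjusted p under 0.05 over 14104 genes in a limma fit, a rule that called 29.0% of all genes tested in this comparison, 16.5% as higher and 12.5% as lower. The median difference of the 6 receptors was 0.24, against 0.039 for all genes. In Flt3- GPs 3 of the 6 receptors changed with genotype, with Clec5a and Clec12a higher and Clec4e lower in Irf8KO, where 43.7% of all genes were called, 16.5% as higher and 27.2% as lower. The median there was 0.48, against -0.035 for all genes.

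The second question is how Flt3+ and Flt3- GPs differ. In Irf8KO mice 4 of the 6 receptors, Clec5a, Clec12a, Clec4e and Clec4d, were lower in Flt3+ than in Flt3- GPs and none was called higher, where 45.8% of all genes were called, 22.1% as higher and 23.6% as lower. In WT mice the same 4 receptors were lower in Flt3+ GPs and Clec10a was higher, where 61.9% of all genes were called, 22.6% as higher and 39.2% as lower. The median of the 6 receptors was -0.57 in Irf8KO GPs and -0.63 in WT GPs, against -0.030 and -0.115 for all genes. The balance of higher and lower calls over all genes depended on the scaling in each comparison. Between WT populations there were 3192 higher and 5534 lower here but 4196 higher and 4122 lower after quantile normalization, which moved the median of all genes to -0.013. Between Irf8KO populations there were 3119 and 3335 here but 3794 and 3082 after it, for genotype in Flt3+ GPs 2326 and 1766 here but 1991 and 2174 after it, and for genotype in Flt3- GPs 2322 and 3837 here but 2809 and 3239 after it. No receptor called in these comparisons changed its direction after quantile normalization. The comparisons share arrays with each other and are not independent.

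The plot of fitted differences orders the receptors by their genotype difference. Clec5a, at the top of it, is a receptor of monocytes, macrophages and neutrophils that triggers through Tyrobp. Its probe read -3.81 and -3.80 in Irf8KO Flt3+ GPs and -2.12 and -2.01 in Irf8KO Flt3- GPs, against -7.19 and -7.56 in WT Flt3+ GPs and -3.87 and -4.37 in WT Flt3- GPs. In scanner units these were intensities of 28.8 and 29.5 and of 74.0 and 89.5 in Irf8KO Flt3+ and Flt3- GPs, against 3.23 and 3.36 and 28.0 and 21.3 in WT Flt3+ and Flt3- GPs. The signal was thus low everywhere, and neither WT Flt3+ array was well above background. The genotype groups did not overlap in either population.

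For Clec5a in Flt3+ GPs only a nominal lower bound can therefore be given. It takes the lowest signal of any probe well above background on each dim array. Some probes above that signal were still not well above background. By this bound Clec5a was at least 2.69-fold higher in Irf8KO than in WT (fitted log2 difference 3.57 ± 0.19, SE; adjusted p = 0.000136). Each "at least" below is a nominal bound of this kind. In Flt3- GPs, where all 4 arrays were above background, Clec5a was 4.16-fold higher in Irf8KO (2.06 ± 0.19, SE; adjusted p = 0.000805). Between populations it was 3.34-fold lower in Flt3+ than in Flt3- GPs of Irf8KO mice (-1.74 ± 0.19, SE; adjusted p = 0.000719). In WT mice it was at least 2.16-fold lower in Flt3+ GPs (adjusted p = 4.41e-05). The fitted genotype difference was larger in Flt3+ than in Flt3- GPs by 1.51 ± 0.27 (SE; adjusted p = 0.0107), but it rests on the WT Flt3+ signals below detection, and with normexp background correction it was -0.053. The normexp setting adds 50 to each corrected signal, which by itself shrinks log2 differences between signals this low. The direction of the interaction is not settled by these arrays. The size of the Clec5a differences also depended on the background correction and this added constant. With normexp they were 0.88 for genotype in Flt3+ GPs, under the bound of 2.69-fold, 0.93 for genotype in Flt3- GPs, -0.80 between Irf8KO populations and -0.75 between WT populations, in the same directions and with adjusted p of 0.000621 to 0.00118.

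Clec12a, an inhibitory receptor that senses uric acid crystals from dead cells, was likewise highest in Irf8KO Flt3- and lowest in WT Flt3+ GPs, and was well above background on all 8 arrays. It read -3.01 and -3.13 in Irf8KO Flt3+ GPs and -2.13 and -2.40 in Irf8KO Flt3- GPs, against -4.45 and -4.14 in WT Flt3+ GPs and -2.96 and -2.81 in WT Flt3- GPs. No Irf8KO array overlapped the WT arrays of its own population. Irf8KO Flt3+ GPs had 2.33-fold more Clec12a than WT Flt3+ GPs (1.22 ± 0.14, SE; adjusted p = 0.00223). Irf8KO Flt3- GPs had 1.53-fold more (0.62 ± 0.14, SE; adjusted p = 0.0150), a call that was lost without WT Flt3- replicate 1 (adjusted p = 0.0740) or without Irf8KO Flt3- replicate 1 (adjusted p = 0.0712). Flt3+ GPs had less Clec12a than Flt3- GPs, 1.75-fold in Irf8KO (-0.81 ± 0.14, SE; adjusted p = 0.00472) and 2.66-fold in WT (-1.41 ± 0.14, SE; adjusted p = 0.000341). With normexp background correction the same Clec12a differences were smaller, at 0.60 and 0.38 for genotype in Flt3+ and Flt3- GPs and -0.45 and -0.68 between Irf8KO and WT populations, and all 4 passed the test. The 50 added to each signal in that setting by itself shrinks the differences of so dim a probe. The difference between the genotype effects of the 2 populations, 0.60 ± 0.19 (SE), did not pass the test (adjusted p = 0.0649).

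Clec4d, an activating receptor that can pair with Clec4e, was well above background on all 8 arrays. It read 1.57 and 1.71 in Irf8KO Flt3+ GPs and 2.04 and 2.07 in Irf8KO Flt3- GPs, against 0.89 and 1.23 in WT Flt3+ GPs and 1.74 and 1.70 in WT Flt3- GPs. The genotype groups did not overlap in either population, although the differences were small. In Flt3+ GPs Clec4d was 1.5-fold higher in Irf8KO (0.58 ± 0.11, SE; adjusted p = 0.0150), which was lost with the 4 arrays of this comparison fitted alone (adjusted p = 0.0621) and without Irf8KO Flt3+ replicate 2 (adjusted p = 0.0842). In Flt3- GPs the difference was 0.34 (95% confidence interval 0.057 to 0.62) and missed the threshold (adjusted p = 0.0572), but passed it with the experiment as a block in the fit (adjusted p = 0.0494). It passed as well with quantile normalization (adjusted p = 0.0277), with the stricter filter on dim probes (adjusted p = 0.0401), with the 4 arrays of this comparison fitted alone (adjusted p = 0.0120) and without either WT Flt3+ array (adjusted p = 0.0105), and missed it with normexp (adjusted p = 0.0539). Flt3+ GPs had less Clec4d than Flt3- GPs, 1.57-fold in WT (-0.65 ± 0.11, SE; adjusted p = 0.00356) and 1.33-fold in Irf8KO (-0.41 ± 0.11, SE; adjusted p = 0.0291). The Irf8KO call was lost without any 1 of the 4 Irf8KO arrays, with adjusted p between 0.0594 and 0.135.

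Clec4e, the receptor for the mycobacterial cord factor, went the other way with genotype. It read 0.41 and 0.54 in Irf8KO Flt3+ GPs and 1.17 and 1.23 in Irf8KO Flt3- GPs, against 1.28 and 1.46 in WT Flt3+ GPs and 1.93 and 2.00 in WT Flt3- GPs. All 4 Irf8KO arrays lay below all 4 WT arrays. Clec4e was 1.86-fold lower in Irf8KO than in WT Flt3+ GPs (-0.89 ± 0.081, SE; adjusted p = 0.00100) and 1.70-fold lower in Irf8KO than in WT Flt3- GPs (-0.76 ± 0.081, SE; adjusted p = 0.00124). The genotype effects of the 2 populations differed by -0.13 (95% confidence interval -0.41 to 0.15; adjusted p = 0.442). Like Clec4d it was lower in Flt3+ than in Flt3- GPs, 1.66-fold in Irf8KO (-0.73 ± 0.081, SE; adjusted p = 0.000821) and 1.51-fold in WT (-0.60 ± 0.081, SE; adjusted p = 0.00130). In none of the alternatives run did any of these 4 calls of Clec4e change.

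Clec10a differed with genotype in one population. It read 0.056 and 0.17 in Irf8KO Flt3+ GPs and 0.16 and 0.33 in Irf8KO Flt3- GPs, against 0.82 and 0.88 in WT Flt3+ GPs and 0.31 and 0.35 in WT Flt3- GPs. The WT Flt3+ arrays stood above the other 6. Clec10a was 1.66-fold lower in Irf8KO than in WT Flt3+ GPs (-0.73 ± 0.073, SE; adjusted p = 0.00144), and in Flt3- GPs the difference was -0.083 (95% confidence interval -0.26 to 0.098; adjusted p = 0.408). The difference between these genotype effects was -0.65 ± 0.10 (SE) and passed the test (adjusted p = 0.00828). In WT mice it was 1.43-fold higher in Flt3+ than in Flt3- GPs (0.52 ± 0.073, SE; adjusted p = 0.00154), while in Irf8KO mice the difference was -0.13 (95% confidence interval -0.31 to 0.048; adjusted p = 0.194). The interaction was called for 2 of the 6 receptors, Clec10a and Clec5a, 1 in each direction, where 30.9% of all genes were called, 21.4% as positive and 9.46% as negative.

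Clec10a has a close relative, Mgl2, whose transcript may hybridise to its probe, so its values are uncertain to that extent. Mgl2 read 7.05 and 7.03 in Irf8KO Flt3+ GPs and 7.38 and 7.34 in Irf8KO Flt3- GPs, against 7.22 and 7.18 in WT Flt3+ GPs and 7.68 and 7.60 in WT Flt3- GPs. Between WT populations the Mgl2 probe was lower in Flt3+ GPs by -0.44 ± 0.045 (SE; adjusted p = 0.000419), the opposite direction to Clec10a. By genotype its mean was lower in Irf8KO, at 7.04 against 7.20 in Flt3+ GPs and 7.36 against 7.64 in Flt3- GPs. In Flt3+ GPs this is the same direction as Clec10a. The share of Mgl2 in the Clec10a signal was not tested.

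Clec4a2, an inhibitory receptor of dendritic cells and other myeloid cells, was well above background on 5 of the 8 arrays. It read -4.40 and -4.65 in Irf8KO Flt3+ GPs and -4.64 and -4.61 in Irf8KO Flt3- GPs, against -4.14 and -4.69 in WT Flt3+ GPs and -6.62 and -4.99 in WT Flt3- GPs. One Irf8KO Flt3- array and both WT Flt3- arrays were not well above background. No comparison of Clec4a2 passed the test. In Flt3+ GPs the genotype difference was -0.11 (95% confidence interval -1.38 to 1.16; adjusted p = 0.892). In Flt3- GPs the fitted difference was 1.18 ± 0.51 (SE; adjusted p = 0.117), and it turned on single WT Flt3- arrays: it was 2.00 without replicate 2 (adjusted p = 0.00735) and 0.36 without replicate 1 (adjusted p = 0.311), and 0.36 with normexp (adjusted p = 0.0277). Between WT populations the fitted Flt3+ minus Flt3- difference was 1.39 (95% confidence interval 0.12 to 2.67; adjusted p = 0.0582). It was 2.21 without WT Flt3- replicate 2 (adjusted p = 0.00179), 0.58 without replicate 1 (adjusted p = 0.105) and -0.077 with normexp (adjusted p = 0.561), so no direction is given for Clec4a2. The normexp values of Clec4a2 are likewise shrunk by the 50 added to each signal. The genotype interval of Clec4a2 in Flt3+ GPs still holds changes of somewhat over 2-fold in either direction.

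Gene order sets these receptors beside their relatives. Clec4a2, Clec4d and Clec4e stand in a run of 9 lectin genes on chromosome 6, of which 7 were tested, and Clec4d and Clec4e are next to each other at its end. In Flt3+ GPs the 95% confidence interval of the genotype difference was 0.30 to 0.86 for Clec4d and -1.09 to -0.69 for Clec4e. These neighbours thus had intervals on opposite sides of 0. Within the run, 2 genes were higher (Clec4a3 and Clec4d) and 1 was lower (Clec4e) in Irf8KO Flt3+ GPs, and 1 was higher (Clec4a3) and 1 was lower (Clec4e) in Irf8KO Flt3- GPs. Over all genes 29.0% and 43.7% were called in these comparisons. The Clec4a and Clec4b genes are near copies, so the signals of their probes may mix transcripts. Clec12a heads a second run of 7 genes that also holds Clec9a, Clec7a and Olr1, with 4 genes tested.

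The plot by gene order also shows the other C-type lectins of myeloid cells, a list of 18 genes of which 12 were tested. In the genotype comparisons 4 rose and 2 fell in Irf8KO Flt3+ GPs (median 0.0039), and 3 rose and 2 fell in Irf8KO Flt3- GPs (median 0.082), where 29.0% and 43.7% of all genes were called. The 4 in Flt3+ GPs include Olr1, which was not well above background in either group compared. Clec4a3, a relative of Clec4a2, read -3.91 and -4.29 in Irf8KO Flt3+ GPs against -6.70 and -7.40, not well above background, in WT Flt3+ GPs, which makes it at least 2.19-fold higher in Irf8KO (adjusted p = 0.000905). Clec9a, a dendritic cell receptor for the actin of dead cells, was not well above background in Irf8KO Flt3+ GPs, at -7.44 and -7.31, against -3.58 and -3.19 in WT Flt3+ GPs, at least 3.83-fold lower in Irf8KO (adjusted p = 0.000146). WT Flt3+ GPs were the only group in which Clec9a was well above background, so it was tested only through the group where it was high. Clec4a3 likewise passed the background filter only through the Irf8KO groups. The calls of these genes are therefore not independent of the filter.

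Between populations 1 of these 12 lectins was higher and 4 were lower in Flt3+ than in Flt3- GPs of Irf8KO mice (median -0.30), and 3 were higher and 4 lower in WT mice (median -0.029). These comparisons called 45.8% and 61.9% of all genes. Olr1, a receptor for oxidised lipoprotein that lies in the Clec12a run, was at least 55.3-fold lower in Flt3+ than in Flt3- GPs of Irf8KO mice (adjusted p = 9.31e-05) and at least 49.6-fold lower in WT mice (adjusted p = 3.41e-05). Clec4b2 was at least 4.62-fold lower in Flt3+ GPs of Irf8KO mice (adjusted p = 7.84e-05) and at least 3.96-fold lower in WT mice (adjusted p = 4.30e-05). Olr1 and Clec4b2 passed the background filter only through the Flt3- groups, where they were high. Cd302 went the other way and was 5.16-fold higher in Flt3+ than in Flt3- GPs of Irf8KO mice (adjusted p = 1.10e-05).

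The signalling partners of the receptors were followed as a list of 28 adaptors, kinases, phosphatases and NF-kappaB relay genes, and all 28 were tested. Of these, 8 rose and 2 fell in Irf8KO Flt3+ GPs (median 0.052), and 8 rose and 2 fell in Irf8KO Flt3- GPs (median 0.073), where 29.0% and 43.7% of all genes were called. Flt3+ GPs had 2 higher and 8 lower than Flt3- GPs in Irf8KO mice (median -0.0046), and 5 higher and 12 lower in WT mice (median -0.11). The shares called over all genes were 45.8% and 61.9%. Of the adaptors, Tyrobp and Fcer1g rose with genotype in both populations, and Hcst did not.

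Tyrobp, the adaptor of Clec5a, read 6.22 and 6.26 in Irf8KO Flt3+ GPs and 6.42 and 6.55 in Irf8KO Flt3- GPs, against 5.07 and 5.14 in WT Flt3+ GPs and 5.58 and 5.57 in WT Flt3- GPs. It was 2.20-fold higher in Irf8KO Flt3+ GPs (adjusted p = 0.000112) and 1.88-fold higher in Irf8KO Flt3- GPs (adjusted p = 0.000285). Fcer1g, the adaptor of Clec4d and Clec4e, was 1.70-fold higher in Irf8KO Flt3+ GPs (adjusted p = 0.000220) and 1.39-fold higher in Irf8KO Flt3- GPs (adjusted p = 0.000979). Clec4e, which fell, and its adaptor, which rose, therefore differed in direction. Hcst, the second adaptor of Clec5a, was lower in Irf8KO Flt3+ GPs by -0.32 ± 0.043 (SE; adjusted p = 0.00399), and the difference was 0.0066 in Flt3- GPs (95% confidence interval -0.099 to 0.11; adjusted p = 0.918).

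Below the adaptors, Card9, the scaffold that links Syk to NF-kappaB, read -1.10 and -1.23 in Irf8KO Flt3+ GPs and -0.31 and -0.065 in Irf8KO Flt3- GPs, against -1.95 and -1.96 in WT Flt3+ GPs and -0.78 and -0.68 in WT Flt3- GPs. The genotype groups did not overlap in either population. Card9 was 1.73-fold higher in Irf8KO Flt3+ GPs (adjusted p = 0.00272) and 1.46-fold higher in Irf8KO Flt3- GPs (adjusted p = 0.00626), and lower in Flt3+ than in Flt3- GPs by -0.98 in Irf8KO mice and by -1.22 in WT mice. For Syk itself the genotype difference was -0.041 in Flt3+ GPs (95% confidence interval -0.17 to 0.091; adjusted p = 0.605) and -0.076 in Flt3- GPs (-0.21 to 0.055; adjusted p = 0.296).

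**Figure D2:**
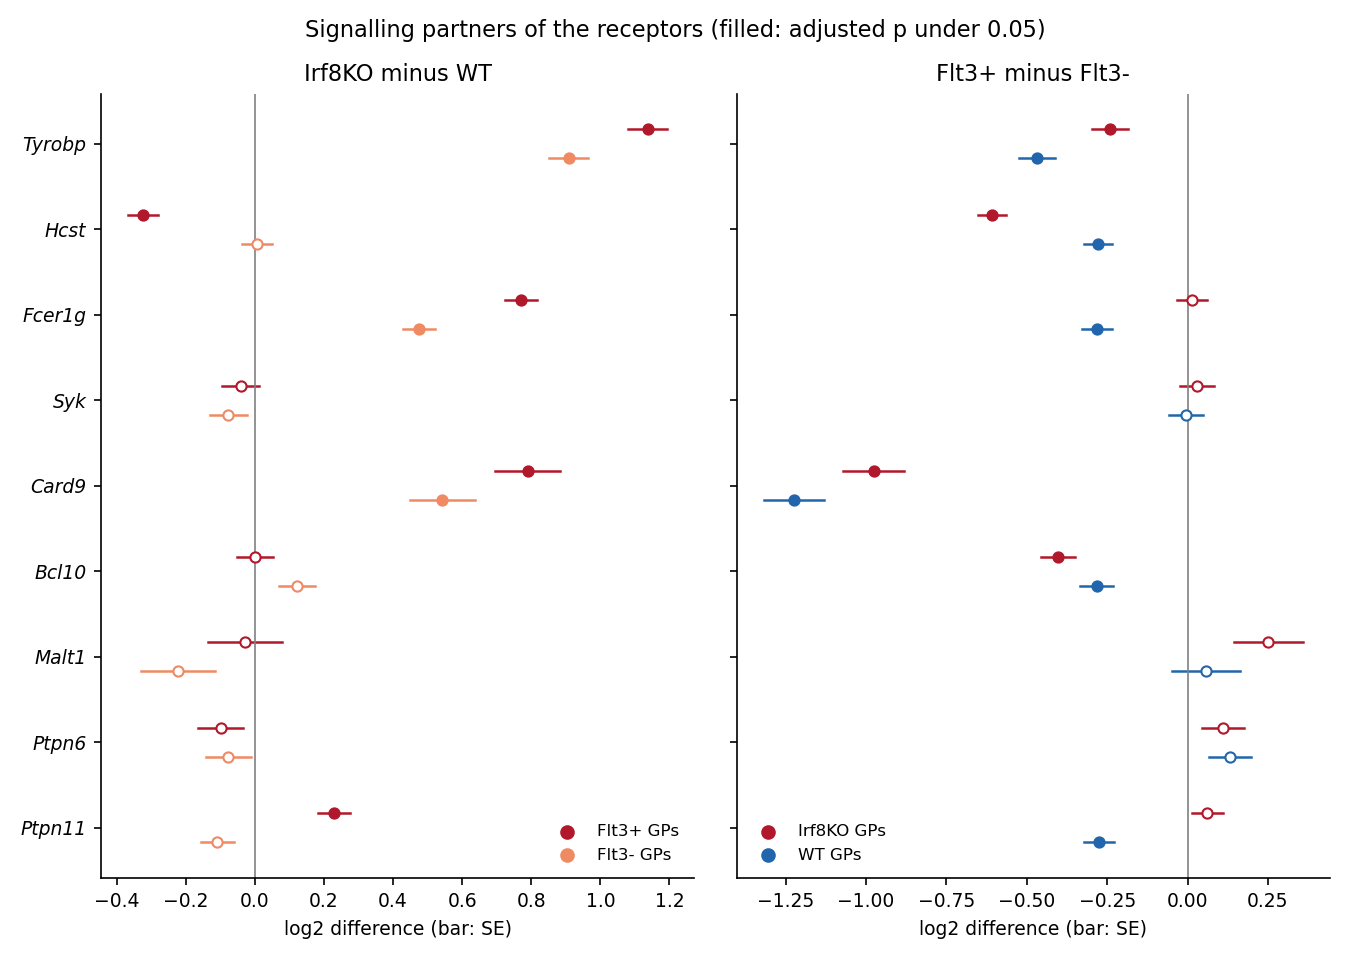
Fitted log2 differences of the adaptors, kinase, relay genes and phosphatases named above (x axis, bars are the SE) for Irf8KO minus WT in each population (left) and for Flt3+ minus Flt3- in each genotype (right); filled points passed an adjusted p of 0.05. Tyrobp, Fcer1g and Card9 lie above 0 for genotype in both populations, while Syk lies near 0 in all 4 comparisons.

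The plot of the adaptors and relay genes sets these values beside each other. Markers of other cell types moved along with genotype and population. In each population 16.5% of all genes were called higher in Irf8KO. Of 11 markers of maturing neutrophils, 10 had a probe and all 10 were higher in Irf8KO in both populations (median 1.84 in Flt3+ and 1.43 in Flt3- GPs). Their summed level, in units of the array's 75th percentile, was 38.7 to 39.5 in Irf8KO Flt3+ GPs and 34.3 to 34.4 in Irf8KO Flt3- GPs, against 8.79 to 8.95 in WT Flt3+ GPs and 16.8 to 17.3 in WT Flt3- GPs. Mmp9 was not well above background in either WT group, and Mmp8 was not in WT Flt3- GPs. Mmp9 was tested only through Irf8KO Flt3+ GPs, so its higher calls are not independent of the filter. The higher Clec5a, Clec12a, Clec4d and Tyrobp of Irf8KO arrays stand beside these values. In bulk RNA a different share of cells and a different level per cell cannot be told apart, and the part of such cells in the receptor differences was not tested.

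Genotype calls over all genes were 29.0% in Flt3+ and 43.7% in Flt3- GPs. Of 12 monocyte markers 9 were tested, and 5 were higher and 1 was lower in Irf8KO Flt3+ GPs, and 6 were higher and 3 lower in Irf8KO Flt3- GPs. Their summed level was 145 to 149 in Irf8KO Flt3+ GPs and 155 to 156 in Irf8KO Flt3- GPs, against 84.7 to 88.3 in WT Flt3+ GPs and 80.2 to 80.5 in WT Flt3- GPs. Without F13a1, the marker with the most signal, it was 56.7 to 59.8 and 54.2 to 54.4 in Irf8KO Flt3+ and Flt3- GPs, against 54.7 to 56.3 and 45.0 to 45.4 in WT Flt3+ and Flt3- GPs. Of 6 macrophage markers 5 were tested, with 1 higher and 4 lower in Irf8KO Flt3+ GPs and 1 higher and 3 lower in Irf8KO Flt3- GPs, at summed levels of 0.65 to 0.73 and 2.27 to 2.33 in Irf8KO Flt3+ and Flt3- GPs, against 0.74 to 0.83 and 2.34 to 2.42 in WT Flt3+ and Flt3- GPs. The marker that was higher in each population was Adgre1, which gave the most signal of the 6 in both Irf8KO groups. Its mean was -1.11 in Irf8KO against -2.70 in WT Flt3+ GPs, and it was 2.48-fold higher in Irf8KO than in WT Flt3- GPs (adjusted p = 0.000367). The complement genes C1qa and C1qc, known from macrophages, were not well above background in either Irf8KO group.

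The population comparisons called 22.1% of all genes higher and 23.6% lower in Irf8KO mice, and 22.6% and 39.2% in WT mice. The genotype comparisons called 29.0% in Flt3+ and 43.7% in Flt3- GPs. Of 9 dendritic cell markers 7 were tested, with 5 higher and 0 lower in Flt3+ than in Flt3- GPs of each genotype, and 1 higher and 3 lower in Irf8KO than in WT Flt3+ GPs. Their summed level was 229 to 234 in Irf8KO Flt3+ GPs and 231 to 249 in Irf8KO Flt3- GPs, against 191 to 223 in WT Flt3+ GPs and 191 to 205 in WT Flt3- GPs, with Xcr1 not well above background in any group. Siglech alone made up 92.1 to 96.6% of that sum, and without it the sum was 18.0 to 18.7 in Irf8KO Flt3+ GPs against 7.66 to 8.78 in Irf8KO Flt3- GPs, and 14.6 to 15.2 in WT Flt3+ GPs against 8.27 to 8.45 in WT Flt3- GPs. The sum without Siglech was highest in Irf8KO Flt3+ GPs, while Clec10a and Clec9a were highest in WT Flt3+ GPs, the only group through which Clec9a passed the background filter. All 8 progenitor and primary granule markers and all 7 eosinophil, basophil and mast cell markers were lower in Flt3+ than in Flt3- GPs of both genotypes, as were Clec5a, Clec12a, Clec4d and Clec4e. The summed level of the eosinophil, basophil and mast cell markers was 6.13 to 6.47 in Irf8KO Flt3+ GPs against 70.8 in Irf8KO Flt3- GPs, and 11.0 to 11.7 in WT Flt3+ GPs against 140 to 141 in WT Flt3- GPs. With genotype, 7 progenitor markers were higher and 1 lower in Irf8KO Flt3+ GPs and 4 higher and 2 lower in Irf8KO Flt3- GPs, while 1 eosinophil, basophil or mast cell marker was higher and 3 lower in Irf8KO Flt3+ GPs, and 0 were higher and 5 lower in Irf8KO Flt3- GPs. The part of these cells in the receptor differences was not tested.

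The genes whose pattern over the 8 arrays was most like each receptor were found by Pearson correlation of log2 levels, as a description over 8 arrays that share 4 groups. They were Gas7 (r = 0.994), Pde2a and Slc36a2 for Clec5a. They were Katnbl1 (r = 0.995), Il22ra2 and Tctex1d2 for Clec12a, and Rmnd1 (r = 0.997), Degs1 and Plcb1 for Clec4d. For Clec4e they were Tmem40 (r = 0.997), Cavin1 and Smim5. For Clec10a they were Bcl3 (r = 0.982), Adora2a and Pim2, and for Clec4a2 Asprv1 (r = 0.961), Tmem91 and Baiap2.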

How the data were processed

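Total RNA of 8 samples was hybridised to one-colour Agilent arrays. Per the file headers, the authors' scanner files were made with Agilent Feature Extraction 10.7.3.1, and the deposited intensity used here is its processed signal, background-corrected on a linear scale. The deposited flags (well above background, saturated, outlier) are a coded score of 0 or 1 for each spot. The authors' deposited series table also holds intensities, with column medians of 28.7 and 27.1 (Irf8KO Flt3+), 27.5 and 27.6 (Irf8KO Flt3-), 29.9 and 28.7 (WT Flt3+) and 26.9 and 28.0 (WT Flt3-). Its columns are the processed signals times 1 factor per array, equal at the 75th percentile, judged from the values, and it served as an alternative.

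The processed signal was averaged over spots of a probe after outlier spots were left out, put on a log2 scale and reduced by the array's 75th percentile. Probes were named through RefSeq accessions: 26762 of 55681 had 1 gene and 28919 were not named. The probe with the highest mean stood for a gene with several, and genes whose probe passed the background flag on the 2 arrays of any group were tested (14104 genes). limma 3.58.1 in R 4.3.3 fitted 4 group means over all 8 arrays with empirical Bayes variances, which was tested on simulated data, and the adjusted p is Benjamini-Hochberg's over all genes tested. The number of arrays limits the precision. A group dim on both arrays gives a nominal bound, from the higher, on each array, of its own signal and the lowest signal well above background. That signal is the lowest over all probes and is not a detection limit for each probe. Clec4a2 on WT Flt3- array 2, at -4.99, failed the flag above the -5.50 of that array. Promoter windows are RefSeq's (GRCm38.p6).

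Alternatives were an experiment block, normexp, quantile normalization, other filters and probe rules, fewer arrays and the deposited table. The normexp correction was run on the median signals with an offset of 50, which is added to each corrected signal and shrinks log2 differences of dim probes. The title numbers mark 2 independent experiments. The differences between experiments correlated at -0.027 to 0.126 between groups (6 pairs of groups). The receptors and the gene lists were chosen with earlier results of these data known. All receptors were named, and from each other list the 3 called genes with the largest difference in a comparison could be. Mgl2, Fcer1g, Hcst, Syk and the markers named as dim or as examples were named outside that rule, after their values were seen. A few listed genes are counted with their list but not reported singly here.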

Additional observations from a re-analysis of the deposited data

Results flagged for a closer look

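The interaction term of the limma fit, the difference of the genotype effects between populations, passed the test for Clec5a and Clec10a. For Clec5a the fitted value does not settle whether the effects differed. There the Irf8KO minus WT difference was larger in Flt3+ than in Flt3- GPs by 1.51 (log2; adjusted p = 0.0107). Both WT Flt3+ arrays were not well above background for Clec5a, the bounded difference in Flt3+ GPs, 1.43, was below the 2.06 measured in Flt3- GPs, and with normexp the interaction was -0.053 (adjusted p = 0.876). The 50 that normexp adds to each signal by itself shrinks differences of so dim a probe. For Clec10a the Irf8KO minus WT difference was lower in Flt3+ than in Flt3- GPs by -0.65 (adjusted p = 0.00828), with all 8 arrays well above background. Taken separately, experiments 1 and 2 gave Clec10a differences of -0.76 and -0.71 for Flt3+ GPs. For Flt3- GPs they were -0.15 and -0.014.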

How the results depend on the processing

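Of the 19 receptor differences and interactions called, 15 kept their direction and their call in all of their alternatives. Many alternatives could not move a difference and bore on its call only. With 1 probe per receptor, the probe rules, the filters, the block and the omission of arrays from groups not compared leave the difference itself the same. Over 316 alternatives of the 19, the call was lost in 9 (for Clec4d and Clec12a, with the values given above, and for Clec4d between Irf8KO populations with no filter on dim probes, adjusted p = 0.0635), and 1 turned its sign, the Clec5a interaction with normexp, -0.053. The other reversals were of values that no test called. The Clec4a2 genotype difference in Flt3+ GPs was 0.26 with normexp, and between -0.39 (without WT Flt3+ replicate 2) and 0.17 (without WT Flt3+ replicate 1) with 1 array left out, with 0.0095 without Irf8KO Flt3+ replicate 2. The Clec4a2 population difference was -0.18 with normexp in Irf8KO mice, where it ran from -0.019 (without Irf8KO Flt3+ replicate 1) to 0.22 (without Irf8KO Flt3+ replicate 2), and -0.077 with normexp in WT mice. The Clec10a genotype difference in Flt3- GPs ran from -0.17 (without Irf8KO Flt3- replicate 2) to 0.0019 (without Irf8KO Flt3- replicate 1). Leaving out 1 array at a time gave 4 to 5 receptors called for genotype in Flt3+ GPs, 2 to 4 in Flt3- GPs, 3 to 4 between Irf8KO populations, 5 to 6 between WT populations and 2 to 4 for the interaction, with 4 without WT Flt3+ replicate 2, and the lone array of a group was assumed to vary like the others. With normexp 1 receptor was called for the interaction. The fit with the experiments as a replicate block called 5, 4, 4, 5 and 2 receptors in the same order, and apart from Clec4d for genotype in Flt3- GPs changed no call. Quantile normalization moved the interaction calls over all genes to 1976 higher and 1870 lower, against 3023 and 1334 with the 75th percentile. Over all genes, calls for genotype in Flt3+ GPs numbered 2676 with 4 arrays fitted alone and 2679 with no filter, against 4092, and 2184 and 2002 without Irf8KO Flt3+ replicates 1 and 2. Fitting all 32672 probes one by one called 10472, 10812 and 15487 probes for genotype in Flt3- GPs, Irf8KO populations and WT populations, where 6159, 6454 and 8726 of 14104 genes were called, so these counts have different units. Without 1 array the lowest counts were 4063 for genotype in Flt3- GPs, without WT Flt3- replicate 2, and, for the interaction, 2902 and 2515 without Irf8KO Flt3+ replicates 1 and 2 and 2596 and 2554 without WT Flt3- replicates 1 and 2, where no filter gave 2725. The cause of these changes was not tested. Signal over background limits Clec5a in WT Flt3+ GPs and Clec4a2 throughout.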

Other observations

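Genes induced downstream of these receptors were followed as a list of 10, of which 5 were tested. Il1b, Il10, Cxcl2 and Egr3 were not well above background on either array of any group. In Irf8KO Flt3+ GPs 4 were higher and 1 was lower than in WT (median 0.34), and in Irf8KO Flt3- GPs 4 were higher and 0 lower (median 1.06), where Ptgs2 was not well above background in either group. In Flt3+ against Flt3- GPs 4 were higher and 0 lower in Irf8KO mice (median 1.37) and 3 were higher and 0 lower in WT mice (median 0.47). Ptgs2 was well above background only in Irf8KO Flt3+ GPs and was tested only through that group, where it was highest. Its higher calls are therefore not independent of the filter. The medians of 1.06, 1.37 and 0.47 are the values of Ptgs2 itself, and neither WT group was well above background for it. Over all genes 29.0% and 43.7% were called for genotype, and 45.8% and 61.9% between populations.

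Ccl3, a chemokine of activated myeloid cells, read 1.51 and 1.43 in Irf8KO Flt3+ GPs and -0.43 and -0.43 in Irf8KO Flt3- GPs, against 2.11 and 2.08 in WT Flt3+ GPs and -2.04 and -2.20 in WT Flt3- GPs. It was 1.54-fold lower in Irf8KO than in WT Flt3+ GPs (adjusted p = 0.00160) and 3.24-fold higher in Irf8KO than in WT Flt3- GPs (adjusted p = 8.01e-05). Egr2, an immediate early transcription factor, was 3.0-fold higher in Irf8KO than in WT Flt3+ GPs (adjusted p = 0.00182) and 2.37-fold higher in Irf8KO than in WT Flt3- GPs (adjusted p = 0.00269). Tnf was 3.16-fold higher in Flt3+ than in Flt3- GPs of Irf8KO mice (adjusted p = 3.83e-05) and 2.50-fold higher in WT mice (adjusted p = 6.83e-05).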
